A study of Mus musculus with 2 samples.

Results

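NF-kB subunits and their inhibitors were followed in 2 cultured mouse melanoma lines, B16 and B16/BL6. The group holds 10 genes, picked by name from the 23284 gene symbols listed in each library, and all 10 were found. They are the 5 subunit genes Nfkb1, Nfkb2, Rela, Relb and Rel, the 3 classical IkB genes Nfkbia, Nfkbib and Nfkbie, the deubiquitinase gene Tnfaip3 and the atypical nuclear IkB gene Nfkbiz. B16 is a melanoma line of C57BL/6 origin, and B16/BL6 is an invasive subline of it. The study set the lines side by side to look for genes linked to metastasis. B16 was grown in DMEM and B16/BL6 in RPMI, both with 10% FBS and 1% penicillin/streptomycin and with no further agent named, so line and medium cannot be told apart. Each line is represented by 1 library, so no value has a replicate error, no test between the lines was possible, and the order of 2 close levels has no error attached to it.

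NF-kB is a family of dimeric transcription factors. In a resting cell most dimers are held in the cytoplasm by IkB proteins. In the canonical branch, signals from receptors for tumour necrosis factor, interleukin-1 or microbial products activate the IKK kinases, which mark IkB proteins for ubiquitination and proteasomal loss, and the freed dimers enter the nucleus. The non-canonical branch runs through the kinase NIK and the processing of the Nfkb2 product, whose mature form pairs with RelB. Several targets of the pathway, Nfkbia and Tnfaip3 among them, encode its own inhibitors. In melanoma the pathway is known for driving chemokine and survival genes.

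Values are FPKM, fragments per kilobase of transcript scaled to library size, so levels can be compared between genes within a library. A difference is log2(FPKM + 1) in B16/BL6 minus the same in B16, a scale that understates the change of low genes. Higher or lower below means 2-fold or more on that scale, for genes that reached 1 FPKM in either library. Of 10709 such genes, 354 (3.31%) were higher in B16/BL6 by 2-fold or more and 338 (3.16%) lower, with a median difference of 0.01. Rescaling each library to a sum of 1000000 moved that median by -0.16 and the split to 369 higher and 583 lower. A rough reading of single-fragment values put the depth near 10100000 fragments for B16 and 11100000 for B16/BL6. All 8 melanocyte markers looked up (Mitf, Sox10, Pmel, Mlana, Dct, Tyrp1, Tyr and Gpnmb) were above 1 FPKM in both libraries, and the highest was Mlana at 3789 and 6160 FPKM. Their levels were not all alike, with Tyr (10.6 and 164 FPKM) and Pmel (2166 and 4651 FPKM) higher in B16/BL6 by 2-fold or more. Of 13 leukocyte markers, Lyz2 (2.56 and 3.96 FPKM) and Cd68 (2.83 and 1.23 FPKM) alone reached 1 FPKM, the summed levels were 6.27 and 6.13 FPKM, and Cd3e, Cd8a and Ncr1 were listed at 0 in both. None of 10 fibroblast and endothelial markers reached 1 FPKM, and 7 of them, Dcn, Lum, Cdh5 and Kdr included, were listed at 0 in both.

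Among the members, 1 of the 9 that reached 1 FPKM, Nfkbiz, was lower in B16/BL6 by 2-fold or more and 0 were higher. Over all genes 3.16% were lower and 3.31% higher. The remaining 8 lay within 2-fold, and Tnfaip3 did not reach the minimum in either library. The median difference of the 9 genes was -0.07, against 0.01 over all genes. On the rescaled values, where all 10 members passed the minimum, the members' median was -0.23, against -0.16 over all genes.

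**Figure D1:**
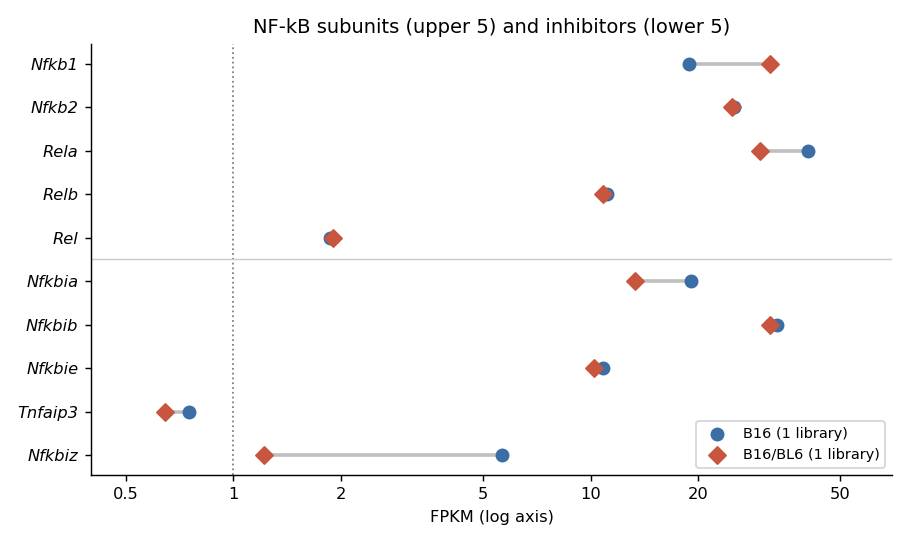
Level of each member in the B16 library (circles) and the B16/BL6 library (diamonds), in FPKM on a log axis, with a dotted line at the minimum of 1 FPKM. Most pairs of symbols touch or nearly touch, while Nfkbiz goes from 5.65 FPKM in B16 to 1.22 FPKM in B16/BL6, and Nfkb1 and Rela lie apart in opposite directions.

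The subunit genes were all transcribed in both lines, and their summed level was nearly equal, at 97.5 FPKM in B16 against 99.0 FPKM in B16/BL6. Rela, which encodes the main transactivating subunit of the canonical dimer (chromosome 19, 5637442 to 5648134, mm10 coordinates here and below), was at 40.6 FPKM in B16 against 29.8 FPKM in B16/BL6, a difference of -0.43. Nfkb1, whose precursor protein is processed to the DNA-binding partner of RelA (chromosome 3, 135584655 to 135691969), was at 18.8 FPKM in B16 against 31.7 FPKM in B16/BL6, a difference of 0.72. These 2 genes therefore stood in opposite order in the 2 libraries. The ratio of Nfkb1 to Rela, which no rescaling of a library can alter, was 0.464 in B16 and 1.06 in B16/BL6, a shift of 2.29 times. Neither gene alone passed 2-fold. Of the 10709 genes, 6.42% had a difference as high as that of Nfkb1 and 13.8% one as low as that of Rela. The 10 nearest measured genes around Nfkb1 had a median difference of 0.48, and the 525 measured genes of chromosome 3 one of 0.16, so on balance that neighbourhood stood in the same direction, and its part in the Nfkb1 value was not tested.

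The subunits of the non-canonical branch differed little between the libraries. Nfkb2, the gene of the precursor that restrains RelB until it is processed (chromosome 19, 46300994 to 46312400), was at 25.2 FPKM in B16 against 24.8 FPKM in B16/BL6. Relb, the transactivating partner in that branch (chromosome 7, 19606217 to 19629438), was at 11.1 and 10.8 FPKM. The ratio of Nfkb2 to Relb was accordingly 2.27 in B16 and 2.29 in B16/BL6. Rel, the gene of c-Rel, a subunit best known from lymphoid cells (chromosome 11, 23736847 to 23770969), was the lowest subunit, at 1.87 and 1.90 FPKM. By a rough estimate these Rel values rested on 141 and 158 fragments. The Rela level was 21.7 times that of Rel in B16 and 15.7 times in B16/BL6.

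**Figure D2:**
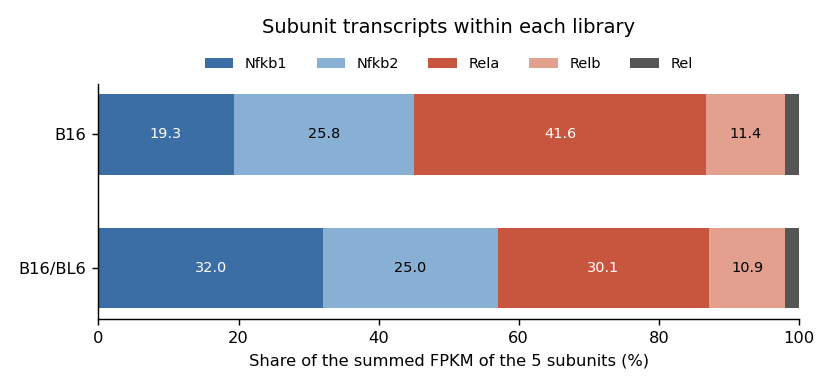
Share of each subunit gene in the summed FPKM of the 5 subunits, in percent, with 1 bar for each library. Rela takes 41.6% in B16 and 30.1% in B16/BL6 and Nfkb1 takes 19.3% and 32.0%, while the segments of Nfkb2, Relb and Rel are almost equal in the 2 bars.

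As shares of the subunit sum, Nfkb2 made up 25.8% in B16 and 25.0% in B16/BL6, Relb 11.4% and 10.9%, and Rel 1.91% and 1.92%. The shares that differed by over 10 percentage points were those of Nfkb1 and Rela. Exons of Nfkb2 overlap those of Psd on the opposite strand. The library kit keeps strand, but no source used here says whether the counting used it. Psd itself was at 1.86 and 1.00 FPKM.

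The classical inhibitors were at levels similar to those of the subunits. Nfkbib, which encodes IkB-beta, a slowly resynthesised inhibitor (chromosome 7, 28758251 to 28766644), was the highest of the 3, at 33.3 FPKM in B16 against 31.7 FPKM in B16/BL6. In B16/BL6 it was the highest of all 10 members, just ahead of Nfkb1. In B16 it was second to Rela. Its exons overlap those of Sirt2 (66.0 and 66.2 FPKM) on the opposite strand, with the same uncertainty about strand as for Nfkb2. Nfkbia, which encodes IkB-alpha, the inhibitor that NF-kB rapidly re-induces to end its own activity (chromosome 12, 55489409 to 55492647), was at 19.1 FPKM in B16 against 13.3 FPKM in B16/BL6. Its difference of -0.49 stayed within 2-fold, and 11.7% of all genes were as low. Chromosome 12 as a whole had a median of 0.17, and Nfkbia stood at -0.65 relative to it. Nfkbie, the gene of IkB-epsilon (chromosome 17, 45555700 to 45563169), was at 10.8 and 10.2 FPKM.

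Read against the subunits, the 3 classical inhibitors summed to 63.2 FPKM in B16 against 55.3 FPKM in B16/BL6. Their ratio to the subunit sum was 0.648 and 0.558. The ratio of Nfkbia to Rela hardly differed, at 0.470 in B16 and 0.448 in B16/BL6. Within the 3 inhibitors, the Nfkbia share was 30.2% in B16 and 24.1% in B16/BL6, and the Nfkbib share 52.6% and 57.4%.

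Tnfaip3 encodes A20, which edits ubiquitin chains on signalling proteins upstream of IKK and is itself a strongly inducible NF-kB target (chromosome 10, 19000910 to 19015410). It was the lowest member in both lines, at 0.752 FPKM in B16 against 0.643 FPKM in B16/BL6. These levels correspond to roughly 34 and 32 fragments, the fewest of any member in either library. Chromosome 10 had a median difference of 0.41 over 528 genes, and relative to it Tnfaip3 stood at -0.51, a value that rests on those few fragments.

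Nfkbiz was the 1 member past 2-fold. It encodes IkB-zeta, a nuclear protein that binds the Nfkb1-derived subunit and acts as a coactivator at a subset of secondary response genes rather than as a cytoplasmic inhibitor (chromosome 16, 55811375 to 55838954). It was at 5.65 FPKM in B16 against 1.22 FPKM in B16/BL6, so the B16 level was 4.63 times higher. On the log2(FPKM + 1) scale the difference was -1.58, and 129 of 10709 genes (1.20%) were as low. By the rough depth estimate about 235 fragments lay behind the B16 value and about 56 behind the B16/BL6 value. No other annotated gene shares exons with it. The 10 nearest measured genes on chromosome 16 had differences from -0.78 to 0.55 with a median of 0.02, and the chromosome median was -0.04. With a pseudocount of 5 in place of 1 the difference was -0.78 and no longer reached 2-fold.

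Set against its binding partner, the ratio of Nfkb1 to Nfkbiz was 3.34 in B16 and 26.0 in B16/BL6. These are the members with the highest and the lowest difference, so no other pair of members gives a larger shift. The Nfkbiz value in B16/BL6 rests on about 56 fragments. Nfkbiz was above Rel in B16, with a ratio of 3.02, and below it in B16/BL6, with a ratio of 0.642.

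**Figure D3:**
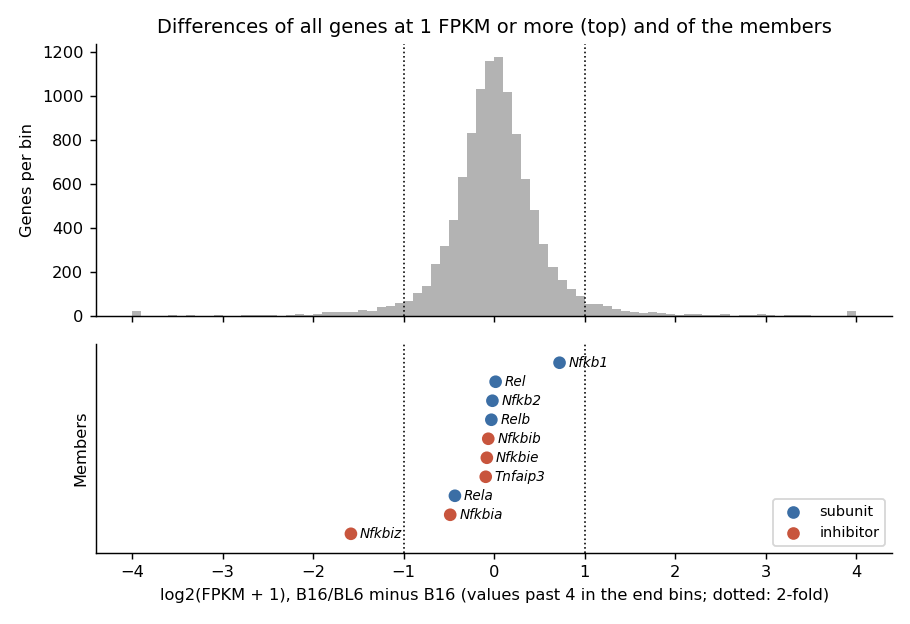
Upper panel, number of genes by difference between the lines (log2(FPKM + 1), B16/BL6 minus B16, bins of 0.1) for the 10709 genes that reached 1 FPKM in either library. Lower panel, the same difference for each member, with dotted lines at 2-fold: Nfkbiz at -1.58 is the only member beyond a line, Nfkb1 at 0.72 is the highest, and Rela and Nfkbia lie near -0.4 to -0.5.

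Several members are known targets of the pathway, and their promoters were read to see how many carry its binding motif. The kB consensus is a motif of 10 bases that begins with G and ends with C. It was searched on both strands of RefSeq promoter windows of 300 bases (250 before the start site and 50 from it on, build GRCm38.p6, which mm10 names). The table used here held windows for 7 of the 10 members, and 5 of these 7 had at least 1 match, namely Nfkb2, Rel, Nfkbia, Nfkbie and Tnfaip3. A match was present in 4.51% of all 32851 windows, in 5.14% of the 27025 genes with a window and in 6.38% of the 7764 genes with a window that reached 1 FPKM. Rela and Nfkbib had none in this window. Nfkb1, Relb and Nfkbiz were not read here. The 160 bases before the start site are shown for the 5 members with a match, 5′ to 3′ on the strand of the gene, with matches in capitals. Where a gene had several windows, the first with a match is shown. The stretches lie at chr19:46304577-46304736 (plus strand) for Nfkb2, chr11:23770970-23771129 (minus strand) for Rel, chr12:55492648-55492807 (minus strand) for Nfkbia, chr17:45555540-45555699 (plus strand) for Nfkbie and chr10:19015411-19015570 (minus strand) for Tnfaip3.
Nfkb2: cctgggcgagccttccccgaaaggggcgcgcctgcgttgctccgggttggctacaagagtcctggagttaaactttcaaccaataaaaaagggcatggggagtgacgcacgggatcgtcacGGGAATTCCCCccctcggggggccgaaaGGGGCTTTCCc
Rel: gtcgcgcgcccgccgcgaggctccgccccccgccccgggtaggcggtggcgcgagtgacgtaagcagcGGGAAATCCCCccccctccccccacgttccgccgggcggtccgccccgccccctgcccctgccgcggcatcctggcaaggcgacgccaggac
Nfkbia: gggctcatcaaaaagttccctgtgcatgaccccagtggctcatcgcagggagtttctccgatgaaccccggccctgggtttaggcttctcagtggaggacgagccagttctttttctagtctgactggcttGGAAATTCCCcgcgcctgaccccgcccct
Nfkbie: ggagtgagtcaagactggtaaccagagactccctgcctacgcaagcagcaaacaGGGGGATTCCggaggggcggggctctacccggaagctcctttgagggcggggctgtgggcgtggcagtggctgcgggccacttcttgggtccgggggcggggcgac
Tnfaip3: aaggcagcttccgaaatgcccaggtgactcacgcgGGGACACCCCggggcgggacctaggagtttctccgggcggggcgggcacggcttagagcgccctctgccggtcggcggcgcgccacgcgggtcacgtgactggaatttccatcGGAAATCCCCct

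In the Nfkb2 window shown, a pair of overlapping matches began 39 and 38 bases before the start site and a separate one 11 bases before it. Further windows of Nfkb2 also held matches, which are not shown. Overlapping matches also stood in Rel, at 92 and 91 bases. In Nfkbia the match began 29 bases before the start site, in Nfkbie 106, and in Tnfaip3 matches began at 125 and 12 bases. The differences of these 5 genes between the lines ran from -0.49 (Nfkbia) to 0.02 (Rel), all within 2-fold. A match describes the letters of the window and is not evidence of binding in these cells.

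Other pathway genes were taken from 6 lists, covering ligands, receptors and adaptors, kinases with their scaffolds, ubiquitin and proteolysis, other inhibitors, and target genes. Of their 119 genes, 74 reached 1 FPKM, 7 of the 74 were lower in B16/BL6 by 2-fold or more and 0 were higher, with a median of -0.12. The counts over all genes were 3.16% lower and 3.31% higher. The minimum admits a gene through its higher line, so part of the count is set by the filter: 7 of the 74 reached 1 FPKM in B16 alone, Zc3h12a, Tnfsf12 and Cxcl2 among them, and 1 in B16/BL6 alone. Of the 66 that reached it in both libraries, 4 were lower (Tnfrsf12a, Ccl5, Cxcl1 and Ier3) and 0 higher. No share over all genes was computed for that stricter minimum. In B16/BL6, Ccl5 (1.02 FPKM) and Cxcl1 (1.22 FPKM) only just reached it, on about 6 and 13 fragments. The lists were drawn up with earlier results of these data known, so the direction is a description of these libraries.

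Ligand genes were low in both lines. Of 11 ligand genes, 2 reached 1 FPKM and 6 were listed at 0 in both libraries, among them Lta, Ltb and Tnfsf11. Tnf (0.0642 FPKM in B16, listed at 0 in B16/BL6) and Il1b (0.0809 and 0.147 FPKM) rested on 0 to 2 fragments a library by the rough depth estimate, so no comparison is drawn from them. Il18, an interleukin-1 family cytokine gene, was at 1.65 and 1.25 FPKM. Tnfsf12, which encodes the cytokine TWEAK, was at 5.06 FPKM in B16 against 0.888 FPKM in B16/BL6, a difference of -1.68, or -0.77 with a pseudocount of 5. It reached 1 FPKM in B16 alone, on roughly 73 fragments against 14 in B16/BL6. An annotated transcript that joins Tnfsf12 with its neighbour shares its exons, so reads of the 2 may not have been told apart.

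Tnfrsf12a, the gene of Fn14, the TWEAK receptor, was at 124 FPKM in B16 against 49.3 FPKM in B16/BL6, a difference of -1.31. It was the only one of 14 measured receptor and adaptor genes past 2-fold. A link between this difference and that of Tnfsf12 was not tested. The tumour necrosis factor receptor gene Tnfrsf1a was at 77.8 and 93.4 FPKM, and Ltbr, the lymphotoxin receptor gene that feeds the non-canonical branch, at 49.2 and 74.7 FPKM. The Toll-like receptor gene Tlr4 was at 9.48 and 9.77 FPKM, while Il1r1 and Cd40 were listed at 0 in both. Ticam1, the TRIF adaptor gene, was at 16.9 and 8.23 FPKM (difference -0.95), and the highest difference of the list was that of Ltbr, 0.59. The list's median was -0.16.

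Genes between receptors and IkB, the kinases with their regulatory and scaffold proteins, were within 2-fold throughout, 13 of 13. Their median was -0.18. Over all genes 10017 of 10709 were within 2-fold. The IKK genes Chuk and Ikbkb stood at 17.5 and 13.5 FPKM in B16, against 14.1 and 9.86 FPKM in B16/BL6, and Ikbkg, the gene of the regulatory subunit NEMO, at 8.40 and 8.57 FPKM. The scaffold genes Tab2 (29.5 and 28.6 FPKM) and Tank (26.2 and 18.2 FPKM) had the highest levels of the list. Map3k14, the gene of NIK, was low, at 1.12 and 0.766 FPKM. Map3k8, at 1.02 and 0.428 FPKM, had a difference of -0.50, though its plain FPKM ratio of B16 to B16/BL6 was 2.39. With a pseudocount of 0.1, 1 gene of the list was past 2-fold downward.

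Of 15 measured genes for ubiquitin ligases and IkB proteolysis, 15 were within 2-fold, with a median of 0.07. Over all genes 10017 of 10709 were within 2-fold. The ubiquitin ligase components Skp1a (158 and 267 FPKM) and Cul1 (73.7 and 65.2 FPKM), which belong to the complex that marks IkB, and the linear chain ligase gene Rbck1 (68.1 and 63.4 FPKM) had the highest levels. Birc3, an inducible ligase gene and a known NF-kB target, was under the minimum, at 0.661 and 0.725 FPKM, as were Traf1 and Traf5.

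Among 14 measured genes for other inhibitors, Zc3h12a alone was past 2-fold. It encodes Regnase-1, an RNase that degrades transcripts of inflammatory genes, Nfkbiz among its known substrates, and it was at 4.05 FPKM in B16 against 0.822 FPKM in B16/BL6 (difference -1.47, and -0.64 with a pseudocount of 5). Nearest to 2-fold on either side were the A20 partner gene Tnip2, at 6.34 and 2.80 FPKM (difference -0.95), and Pdlim2, whose product promotes the loss of nuclear RelA, at 4.37 and 8.61 FPKM (difference 0.84). The most abundant members of the list, Commd1 (92.2 and 106 FPKM), Tax1bp1 (65.9 and 66.1 FPKM) and Nkiras2 (41.5 and 53.1 FPKM), did not reach 2-fold. The nuclear IkB relatives Bcl3 (0.557 and 0.908 FPKM) and Nfkbid (0.0503 and 0.0911 FPKM) were under the minimum, so Nfkbiz was the only atypical nuclear IkB gene of the 3 to reach 1 FPKM.

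**Figure D4:**
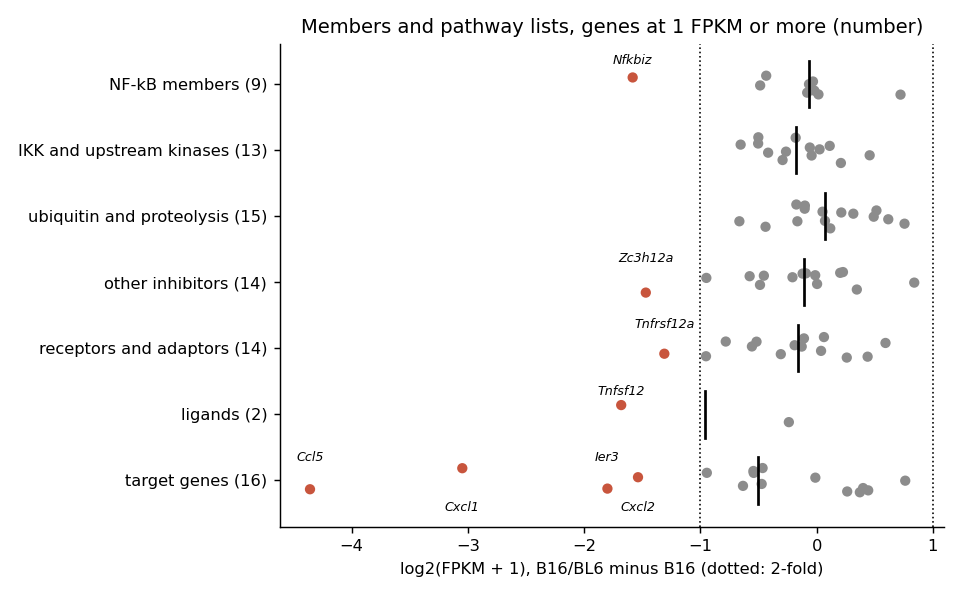
Difference between the lines (log2(FPKM + 1), B16/BL6 minus B16) for each gene at 1 FPKM or more, by list, with the number of genes in brackets, a black bar at the median and dotted lines at 2-fold. Genes past 2-fold are coloured and named, and all 8 of them, Nfkbiz included, lie on the lower side. Of these, Zc3h12a, Tnfsf12 and Cxcl2 reached 1 FPKM in B16 alone. Over all genes 3.16% were lower and 3.31% higher by 2-fold or more.

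Target genes split into a few large differences and many small ones. Of 36 listed, 16 reached 1 FPKM. In B16/BL6, 4 of the 16 (25.0%) were lower by 2-fold or more and 0 were higher. The median difference of the 16 was -0.51. Among all 10709 genes the lower share was 3.16%, the higher share 3.31% and the median difference 0.01. Cxcl2, 1 of the 4, passed the minimum through its B16 level alone, so the filter sets part of that count. The chemokine gene Ccl5 was at 40.4 FPKM in B16 against 1.02 FPKM in B16/BL6, a difference of -4.36. Cxcl1 and Cxcl2, which encode neutrophil chemokines, stood at 17.4 and 2.17 FPKM in B16, against 1.22 and 0.0938 FPKM in B16/BL6. By the rough depth estimate the B16/BL6 values rested on about 6 fragments for Ccl5, 13 for Cxcl1 and 2 for Cxcl2. Over the settings tried, the Ccl5 difference ran from -5.18 to -2.92. Ier3, an early response gene, was at 117 and 32.8 FPKM. Some other well-known targets did not share these differences, although 11 of the 16 had a difference below 0 and 5 one above 0. Cxcl10, a chemokine gene that also answers to interferon, was at 26.7 and 26.5 FPKM, Sod2, the mitochondrial superoxide dismutase gene, at 22.4 and 27.1 FPKM, and Myc at 70.7 and 96.6 FPKM. The survival genes Bcl2l1 (35.0 and 23.7 FPKM) and Cflar (18.0 and 8.86 FPKM) were within 2-fold, at -0.54 and -0.94. For Cflar this holds on the log2(FPKM + 1) scale only, since its plain FPKM ratio of B16 to B16/BL6 was 2.03. The highest difference in the list was 0.76, at the peptide transporter gene Tap1, with 0.330 FPKM in B16 against 1.26 FPKM in B16/BL6, and it passed 2-fold with a pseudocount of 0.1. Ccnd1, the cyclin D1 gene, was the highest of the list, at 142 and 97.3 FPKM.

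The other 20 of the 36 target genes were under 1 FPKM in both libraries. Il6, Nos2 and Cxcl3 were listed at 0 in both libraries. Icam1 stood at 0.0777 and 0.0704 FPKM, and Ptgs2, the cyclooxygenase-2 gene, at 0.0230 and 0.0417 FPKM. Lcn2, which together with Il6 is known to depend on IkB-zeta in macrophages, was at 0.140 FPKM in B16 against 0.127 FPKM in B16/BL6. With no minimum, the median over all 36 target genes was -0.01.

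The kB consensus was found in targets with large and with small differences. Of the 13 that reached 1 FPKM and had a promoter window, 8 had a match. These 8 were Cxcl1, Cxcl2 and Ier3 as well as Cxcl10, Csf1, Bcl2l1, Irf1 and Sod2. Over all target genes with a window, 11 of 26 had a match. Among all genes with a window that reached 1 FPKM the share was 6.38%. The genes were listed as known targets of the pathway, so no conclusion is drawn from their higher share. Ccl5, the target with the largest difference, was not read here. The 160 bases before the start site are shown for these 3 genes past 2-fold, Cxcl1, Cxcl2 and Ier3, and for Cxcl10, whose levels were nearly equal, in the same notation. They lie at chr5:90891085-90891244 (plus strand) for Cxcl1, chr5:90903739-90903898 (plus strand) for Cxcl2, chr17:35821553-35821712 (plus strand) for Ier3 and chr5:92348890-92349049 (minus strand) for Cxcl10.
Cxcl1: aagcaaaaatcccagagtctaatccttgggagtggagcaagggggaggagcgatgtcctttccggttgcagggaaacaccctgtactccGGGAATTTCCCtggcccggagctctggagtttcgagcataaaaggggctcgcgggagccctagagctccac
Cxcl2: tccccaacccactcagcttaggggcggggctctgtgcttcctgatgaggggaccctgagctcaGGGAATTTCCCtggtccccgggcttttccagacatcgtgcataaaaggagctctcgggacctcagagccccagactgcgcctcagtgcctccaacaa
Ier3: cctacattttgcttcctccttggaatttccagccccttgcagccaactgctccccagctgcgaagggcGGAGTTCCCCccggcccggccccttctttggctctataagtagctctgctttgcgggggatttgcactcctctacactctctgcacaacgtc
Cxcl10: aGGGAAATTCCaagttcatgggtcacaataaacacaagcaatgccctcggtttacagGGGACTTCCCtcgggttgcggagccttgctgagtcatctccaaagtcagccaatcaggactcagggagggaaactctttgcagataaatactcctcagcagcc

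Cxcl1 and Cxcl2 held the same overlapping pair of matches, 71 and 70 bases before the start site in Cxcl1 and 97 and 96 in Cxcl2, with differences of -3.05 and -1.54. The Ier3 match began at 92 bases, with a difference of -1.80, and those of Cxcl10 at 159 and 103 bases, with a difference of -0.01. The Cxcl2 difference was -0.49 with a pseudocount of 5 and -3.55 with a pseudocount of 0.1, since its B16/BL6 level was close to 0.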

How the data were processed

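Polyadenylated RNA of B16 and B16/BL6 cells was sequenced from 1 stranded library of each line, per the labels' protocols. The authors deposited 1 FPKM value per gene symbol, per the file headers. The submitters' processing notes name Cufflinks 2.2.1, TopHat2 2.0.13, SAMtools 0.1.19 and Bowtie2 2.2.3 with mm10. The sources used here give no annotation, bias correction, strand setting or read count. FPKM values allow no count test. Differences were computed with a pseudocount of 1 and a minimum of 1 FPKM in at least 1 library (Python 3.11.15, pandas 2.3.3, numpy 2.4.6). The procedure was run on simulated data with planted changes larger than 2-fold, in genes well above 1 FPKM and with less spread than these libraries. That run checks the arithmetic and cannot show how reliable calls near the minimum are. Depth was read from genes with 1 annotated transcript over 1500 bases long and a value under 0.2 FPKM, as the median around the highest peak of fragments implied by 1 fragment per gene. It is rough, and no interval was derived from it. Fragments per gene use the longest coding transcript in GENCODE M21. Positions are from RefSeq for GRCm38. A listed marker is not reported here. The members and lists were chosen with earlier results of these data known. In each list the genes named by rule were those past 2-fold and the 3 with the highest level; further ones (such as Tlr4, Ticam1, Tnip2, Pdlim2, Tap1, Birc3, Sod2 and Cxcl10) were chosen after their values were seen. No genes of like pattern were named, since 2 libraries give 1 difference per gene. Alternatives were other pseudocounts, minima and scalings, and centring by chromosome.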

Additional observations from a re-analysis of the deposited data

How the results depend on the processing

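No paired analysis was possible because each line had 1 library, and for the same reason no library could be left out. The 7 alternatives kept the sign of Nfkbiz, from -2.12 to -0.78, and of Nfkb1, from 0.57 to 0.75, Rela, from -0.61 to -0.39, and Nfkbia, from -0.66 to -0.39. The sign of Nfkb2 (-0.19 to 0.03) and Rel (-0.11 to 0.11) was not kept. A change of pseudocount or minimum cannot turn the sign of a difference. Only the scalings and the centring by chromosome could have done so. With a pseudocount of 5, 0 members, 0 ligands and 0 other inhibitors were at least 2-fold lower, and with a minimum of 5 FPKM 0 other inhibitors were. With a pseudocount of 0.1 there were 2 lower other inhibitors, 2 lower receptors or adaptors and 1 lower kinase. The same setting gave 1 lower ubiquitin gene, 1 higher target gene and 5 lower target genes, against 4 lower as reported. After rescaling to a sum of 1000000 there were 2 lower other inhibitors, 2 lower receptors or adaptors and 6 lower target genes of 19. The members' median was then -0.23. Over all genes the lower share was 4.77% with a pseudocount of 0.1 and 1.10% with a pseudocount of 5. It was 2.46% with a minimum of 5 FPKM and 5.18% after rescaling, against 3.16% as reported. Those shifts follow from the construction of the alternatives, which change the weight of low values, the genes considered or the scale. Of 38 recomputed counts that were not 0 on both sides, 27 stayed within 1.5 times the reported one. Of 49 recomputed list medians, 14 moved by over 0.1, and of 115 recomputed differences of single genes, 12 moved by over 1.5 times or lost the 2-fold call. A changed minimum leaves the difference of a single gene as it was, so part of the 115 could not move. Among the members, Tnfaip3 rests on the fewest fragments.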

Other observations

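The genes around Nfkb1 and Nfkbiz were read as values only, without a hypothesis. Of the 5 measured genes on each side of Nfkb1 on chromosome 3, Dnajb14, a co-chaperone gene, was at 4.08 FPKM in B16 against 9.79 FPKM in B16/BL6, a difference of 1.09. Ube2d3, which encodes a ubiquitin-conjugating enzyme, was at 68.6 and 95.5 FPKM, and Lamtor3, the gene of a lysosomal scaffold protein, at 16.7 and 26.7 FPKM. Manba, a lysosomal mannosidase gene, was at 12.5 and 10.5 FPKM. Around Nfkbiz on chromosome 16, the adhesion molecule gene Alcam was at 3.72 and 3.63 FPKM and the transcription factor gene Zbtb11 at 7.36 and 6.27 FPKM. The lowest difference among those neighbours was -0.78, at Bbx (6.55 and 3.38 FPKM). These genes were chosen after their values were seen.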
